A study of Mus musculus with 6 samples.

Results

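The genes described here are 10 genes of small intestinal epithelium, Apoa1, Apoa4, Apoc3, Apob, Fabp1, Fabp2, Fabp6, Rbp2, Defa20 and Lyz1, of 19031 genes that the array names by 1 symbol. They were taken by their platform gene symbol, with every probe that carries it, and all 10 were found, on 17 probes. They were chosen by their measured levels on these arrays, so the levels, differences and correlations given for them are descriptions and carry no test. The samples are colon mucosa of 6 mice aged 5 months on a background labelled C57/B6, each measured on 1 Illumina bead array. All 6 mice carried the Min allele of Apc, labelled APC(Min/+), and floxed Dnmt3a on both chromosomes, labelled Dnmt3a(2lox/2lox). The 3 control mice lacked Cre. The 3 Dnmt3a-deleted mice carried Fabp-Cre, which per the design text deletes Dnmt3a in 30 to 50% of mucosa cells, so that both groups share the Apc mutation and the deleted samples are mixtures of cells with and without Dnmt3a. The titles name the promoter of the Cre transgene Fabpl, an older name of Fabp1, itself 1 of the 10 genes. They add a bracketed mark of copies at a promoter position, so the transgene need not carry the native promoter. Each array is from a separately numbered animal.

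The absorptive cells of the small intestine take up dietary fat, rebuild it into triglyceride and export it in chylomicrons. Apob is the structural protein of that particle, and Apoa1, Apoa4 and Apoc3 are smaller apolipoproteins that ride on it. Inside the cell, fatty acids are bound by Fabp1 and Fabp2, bile acids by Fabp6, a protein of the ileum, and retinol by Rbp2. Paneth cells sit at the base of small intestinal crypts and secrete antimicrobial proteins, among them alpha-defensins such as Defa20 and the lysozyme Lyz1. They are a cell type of the small intestine, and healthy mouse colon has few or none. Levels of these genes therefore differ along the length of the gut.

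Of the 6 arrays, 5 were alike in brightness. Mean scanned intensity ran from 353 to 378.9 on these and was 285.3 on that of Dnmt3a-deleted replicate 3. That array also stood apart in its correlations over all detected probes, at 0.925 to 0.95 with the others, against 0.978 to 0.99 among the other 5. Detection required a deposited detection p under 0.05 together with a signal over background, which was 84.9 to 90.7 on the 6 arrays. Between 19339 and 21358 probes were detected per array. The 3 probes for Dnmt3a were detected on 0 of 6 arrays, so these arrays do not check the deletion. Colonocyte genes marked the tissue on all 6 arrays, with the carbonic anhydrase Car1 at a log2 level of 11.64 to 14.29 and Car4 at 11.55 to 13.15. By Xist and the Y-linked Eif2s3y, control replicate 1 and Dnmt3a-deleted replicates 1 and 2 were male, with Eif2s3y at 7.97 to 8.61 against 4.28 to 5.12 in the other mice.

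The regions just before and at the start of 5 of these genes are shown because the results turn on how differently the genes behave: Apoa1 and Apoa4 were high in the same mouse, Defa20 in another, Fabp6 in others again, and Fabp1 gives the promoter of the Cre transgene its name. The Fabp1 region shown is that of the genome, and the sequence of the transgene was not used. Apoa1, Apoc3 and Apoa4 lie next to each other in that order on chromosome 9. Sequences are from RefSeq, assembly GRCm38.p6, 250 bases before to 50 after the gene start, 5′ to 3′ on the strand of the gene, and 9 of the 10 genes were matched. Capitals mark the letters TATAAA of a TATA box, the nuclear receptor motif AGGTCA, the motif of GATA factors GATAAG, that of Cdx factors TTTATTG and that of Tcf factors CTTTGAT, all searched on both strands. In the sequences shown no match overlaps another.
Apoa1, chr9:46228380-46228679, plus strand: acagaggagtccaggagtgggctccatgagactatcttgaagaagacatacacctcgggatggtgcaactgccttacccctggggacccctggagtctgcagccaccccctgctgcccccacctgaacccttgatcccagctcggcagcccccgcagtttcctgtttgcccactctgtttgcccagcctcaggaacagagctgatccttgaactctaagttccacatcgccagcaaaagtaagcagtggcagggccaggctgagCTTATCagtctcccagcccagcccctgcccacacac
Apoa4, chr9:46240594-46240893, plus strand: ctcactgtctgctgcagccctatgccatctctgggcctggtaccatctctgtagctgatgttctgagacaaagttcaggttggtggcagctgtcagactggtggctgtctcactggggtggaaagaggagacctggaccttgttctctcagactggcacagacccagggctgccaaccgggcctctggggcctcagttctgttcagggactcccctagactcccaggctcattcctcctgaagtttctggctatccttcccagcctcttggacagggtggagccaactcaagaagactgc
Fabp1, chr6:71199629-71199928, plus strand: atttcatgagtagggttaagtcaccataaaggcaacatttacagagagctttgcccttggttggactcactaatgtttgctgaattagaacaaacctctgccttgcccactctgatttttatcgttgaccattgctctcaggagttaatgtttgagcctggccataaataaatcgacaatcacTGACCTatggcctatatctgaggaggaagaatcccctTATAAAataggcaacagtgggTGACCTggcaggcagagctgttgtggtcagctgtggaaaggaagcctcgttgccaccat
Fabp6, chr11:43601513-43601812, minus strand: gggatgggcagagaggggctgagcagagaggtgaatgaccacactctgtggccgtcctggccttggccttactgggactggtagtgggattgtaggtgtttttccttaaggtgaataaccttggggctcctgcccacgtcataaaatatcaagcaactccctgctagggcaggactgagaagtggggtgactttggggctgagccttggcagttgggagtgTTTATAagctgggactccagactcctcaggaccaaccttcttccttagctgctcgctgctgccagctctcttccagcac
Defa20, chr8:21509008-21509307, plus strand: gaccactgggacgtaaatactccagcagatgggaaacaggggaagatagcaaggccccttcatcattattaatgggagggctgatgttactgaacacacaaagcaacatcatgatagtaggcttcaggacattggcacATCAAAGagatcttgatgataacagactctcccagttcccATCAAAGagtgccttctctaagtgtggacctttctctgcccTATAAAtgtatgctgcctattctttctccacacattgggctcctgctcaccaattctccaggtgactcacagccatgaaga
Over 32851 promoter windows of the same length, 13.6% held TATAAA, 16.3% AGGTCA, 7.44% GATAAG, 4.6% TTTATTG and 3.73% CTTTGAT. Defa20 held the Tcf motif on the opposite strand at -112 and at -72 and a TATA box on its own strand at -31, counted from the gene start. Fabp1 held the nuclear receptor motif on the opposite strand at -67 and at -9 and a TATA box on its own strand at -30. Fabp6 held a TATA box at -29 on the opposite strand. Apoa1 had 1 GATA match, on the opposite strand 14 bases past its start, and Apoa4 had no match to these letters. These are matches of letters and no binding was measured.

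The first question was which mice carried these genes. Apoa1, the main protein of high density lipoprotein and made by enterocytes and liver, was bright in 1 mouse. Its scanned intensity was 889 in control replicate 1, against 81.6 and 84 in control replicates 2 and 3 and 107.4, 104.3 and 83.1 in Dnmt3a-deleted replicates 1 to 3. It was detected on 3 arrays, those of control replicate 1 and Dnmt3a-deleted replicates 1 and 2, and on the last 2 it stood little above background. These are the 3 male mice, and the part of sex in this was not tested. After background correction and normalization the log2 levels were 9.63, 4.56 and 4.6 in the controls and 5.60, 5.43 and 4.81 in Dnmt3a-deleted mucosa. Control replicate 1 exceeded the next array by 4.03 log2, or 16.3-fold.

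Apoa4, an apolipoprotein that the small intestine secretes with fat, was bright in the same mouse on all 3 of its probes. The probe detected on all 6 arrays read 219.7 in control replicate 1, 93.9 and 106.7 in the other control mice and 97.1, 108.1 and 102.3 in the Dnmt3a-deleted mice. The other probes read 360.7 and 370.7 in control replicate 1 and were detected on no other array, where they read at most 94.3. Apoc3, an inhibitor of triglyceride clearance from blood, read 243.2 in control replicate 1, 87 and 89.4 in the other control mice and 87.2, 98 and 91.5 in the Dnmt3a-deleted mice. It was detected on 2 arrays, the other being Dnmt3a-deleted replicate 3, where it stood close to background. Control replicate 1 was thus the highest of the 6 mice for each of the 3 neighbouring genes, by 1.37 log2 for Apoa4 and 2.13 for Apoc3, and in the other 5 mice the 3 genes stood near background.

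**Figure D1:**
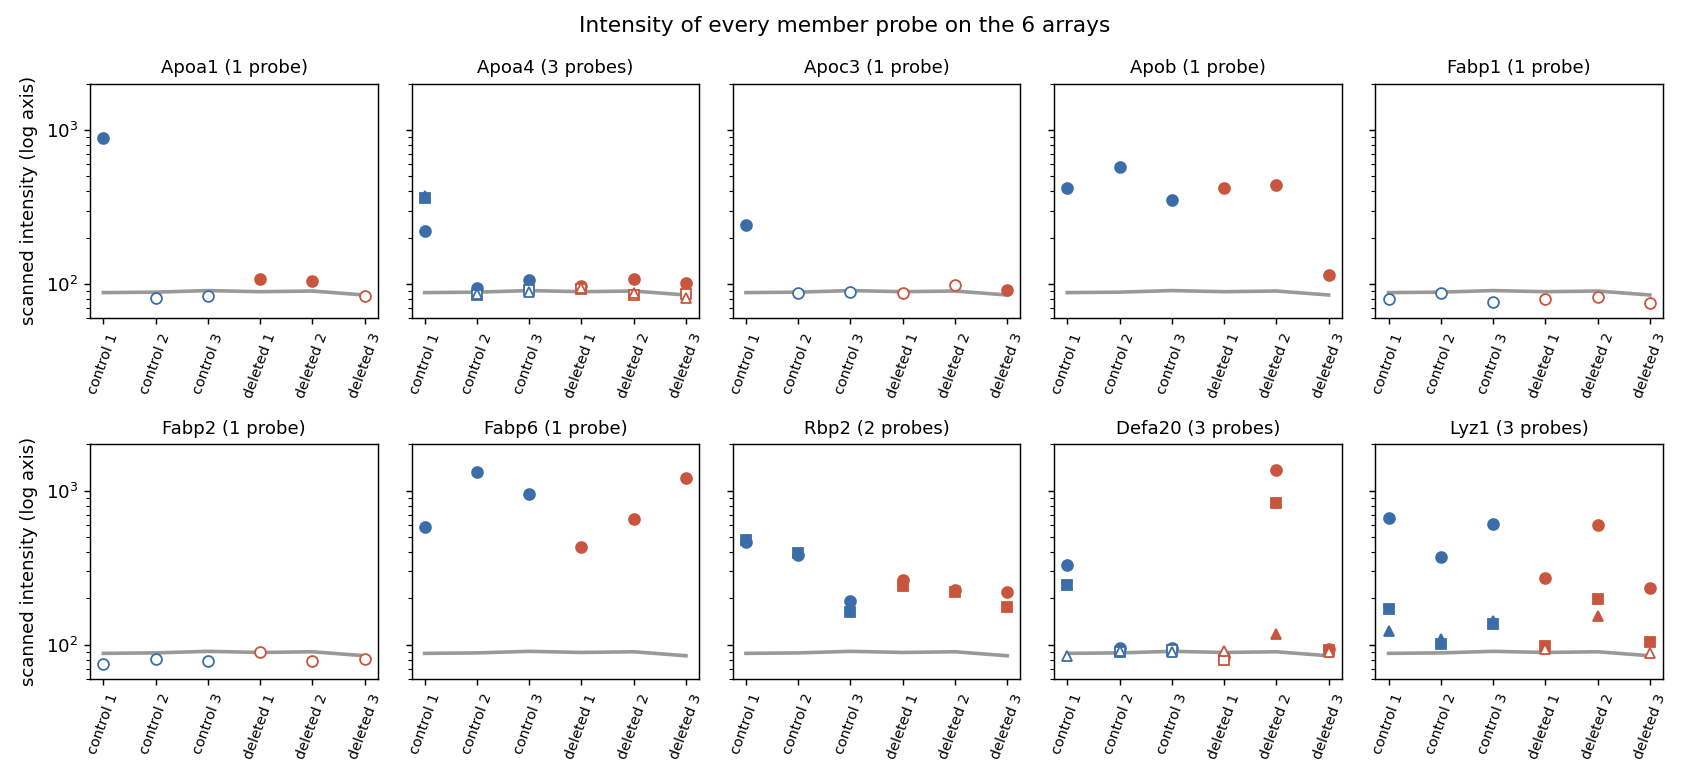
Scanned intensity (log axis, linear units of the scanner) of all 17 probes of the 10 genes on the 6 arrays, control in blue and Dnmt3a-deleted in red, with a marker shape for each probe of a gene. Filled markers were detected, open ones were not, and the grey line is each array's background. Apoa1, Apoa4 and Apoc3 stand above it mainly in control replicate 1, Defa20 in Dnmt3a-deleted replicate 2 and control replicate 1, and Fabp1 and Fabp2 nowhere.

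Apob, the structural protein that chylomicrons are built on, did not share that pattern. Its log2 level was 8.43, 8.98 and 7.99 in control replicates 1 to 3, and 8.49, 8.44 and 6.35 in Dnmt3a-deleted replicates 1 to 3. Apob was detected in all 6 mice, control replicate 1 was unremarkable, and the lowest value was that of the array that stands apart. The Dnmt3a-deleted mean was 0.70 lower, and 0.00 apart without Dnmt3a-deleted replicate 3.

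The fatty acid binding proteins Fabp1 and Fabp2 were detected in 0 of 6 mice. Fabp1, the liver-type protein that gives the promoter of the Cre its name, read 80.2, 87.1 and 77 in the controls and 79.7, 82.3 and 75.5 in Dnmt3a-deleted mucosa. Fabp2, the intestinal type, read 75.4, 80.9 and 78.2 in the controls and 90.2, 78 and 80.9 in Dnmt3a-deleted mucosa. Each gene has 1 probe, not well above background on any array, control replicate 1 included, so no level or fold is given. What these probes would read in a tissue rich in the transcripts was not tested.

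Fabp6, the bile acid binding protein of ileal enterocytes, was well above background in all 6 mice and followed a pattern of its own. Its scanned intensity was 580.9, 1317.7 and 959.3 in the controls and 430.3, 655.9 and 1212.8 in Dnmt3a-deleted mucosa. Log2 levels were 8.96, 10.27 and 9.67, and 8.53, 9.09 and 10.59, in the same order. The highest mice were Dnmt3a-deleted replicate 3 and control replicate 2, and the lowest was Dnmt3a-deleted replicate 1. Control replicate 1, the mouse with the apolipoproteins, was the second lowest. The groups overlapped, at 9.64 ± 0.66 against 9.40 ± 1.07 (SD, n = 3).

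Rbp2, which carries retinol inside enterocytes, was detected in all 6 mice by both of its probes, whose correlation over the arrays was 0.98. Its brighter probe stood at 8.59, 8.29 and 6.84 in the controls and at 7.68, 7.25 and 7.93 in Dnmt3a-deleted mucosa. Control replicates 1 and 2 were the highest, and control replicate 3 was the lowest, so that the control mice alone spanned the whole range. The group means were 7.91 ± 0.94 and 7.62 ± 0.34 (SD, n = 3).

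Of the Paneth cell genes, Defa20 was brightest in another mouse. Defa20, an alpha-defensin of Paneth cell granules, read 1358.1 in Dnmt3a-deleted replicate 2 and 328 in control replicate 1, against 95.5 and 95.3 in the other control mice and 83 and 94.2 in Dnmt3a-deleted replicates 1 and 3. On the log2 scale these were 10.23 and 8.0, then 5.22, 5.10, 4.61 and 5.48. A Dnmt3a-deleted mouse was the highest, by 2.23 log2 or 4.70-fold over the next, and another was the lowest. The next probe of Defa20 ordered the top mice the same way, at 830.3 and 243.1, and the third, at 118.4, was detected in Dnmt3a-deleted replicate 2 alone. Alpha-defensin transcripts are close copies of each other, so a probe named for 1 of them may also read others.

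Lyz1, the Paneth cell lysozyme, was detected in all 6 mice and varied much less. Its brightest probe stood at 9.17, 8.24 and 8.95 in the controls and at 7.72, 8.95 and 8.05 in Dnmt3a-deleted mucosa. Control replicate 1, Dnmt3a-deleted replicate 2 and control replicate 3 were the 3 highest mice, and Dnmt3a-deleted replicate 1 was the lowest. Both dimmer probes also had their highest value in Dnmt3a-deleted replicate 2, at 6.98 and 6.45. Lyz2, the close copy of Lyz1 that macrophages use, was dimmer. Its brightest probe stood at 5.76, 5.97 and 6.68 in the controls and at 5.76, 5.31 and 4.94 in Dnmt3a-deleted mucosa. Control replicate 3 was the highest, and Dnmt3a-deleted replicate 3, where Lyz2 was not detected on that probe, the lowest. Whether the Lyz1 probes also read Lyz2 could not be checked, and the part of macrophages in the Lyz1 levels was not tested. Summed over the macrophage list, scanned intensity was 2980 in control replicate 1 and 2967 in Dnmt3a-deleted replicate 2. It was 3256 and 3691 in control replicates 2 and 3, 3509 in Dnmt3a-deleted replicate 1 and 2294 in replicate 3, the dimmest array. Each sum holds the background of 19 probes, and Cd14 alone read 1111.2 in control replicate 1 and 1118.4 in Dnmt3a-deleted replicate 2.

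Between the groups, these genes showed the spread of single mice. Of the 8 members with a detected probe, 7 had a lower mean in Dnmt3a-deleted mucosa and Defa20 a higher one, beside 4735 lower and 6635 higher among all 11370 genes tested. The median difference was -0.471 log2 over the members, beside 0.055 over all genes tested. Single differences ran from -0.98 for Apoa1, with an SE of 1.23, to 0.67 for Defa20, with an SE of 1.43. Without control replicate 1 the median was 0.16, and the differences of Apoa4 and Rbp2 turned to 0.26 and 0.06. Those of Apoa1 and Apoc3 turned as well, but both genes were then detected in 0 of the 2 control mice left, so that no size is given. Without Dnmt3a-deleted replicate 2 that of Defa20 turned to -1.06, and Fabp6 turned to 0.09 without control replicate 2 and to 0.20 without Dnmt3a-deleted replicate 1. The groups did not overlap for 0 of the 8 members, where 14.5% of all genes tested had groups that did not overlap. In limma's fit across all genes, which 7 of the 10 members entered, 0 members passed an adjusted p of 0.05 and 0 had an unadjusted p under 0.05, while 0.0088% of all genes passed and 597 had an unadjusted p under 0.05. Since the members were chosen with these levels known, nothing is read from their counts. Samples are whole mucosa, in which fewer cells of a type and less RNA per cell cannot be told apart.

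The second question was whether the genes moved together. Across the 6 mice, the 28 pairs of the 8 detected members had a median Pearson correlation of 0.21, from -0.53 for Apob with Fabp6 to 0.98 for Apoa4 with Apoc3. Correlations over 0.8 were found for 3 pairs, those among Apoa1, Apoa4 and Apoc3. They rest largely on control replicate 1: without it, Apoa1 with Apoa4 was at -0.05 and Apoa1 with Apoc3 at 0.11, while Apoa4 with Apoc3 was at 0.89 over levels near background. Spearman's rho over all 6 mice was 0.60, 0.37 and 0.94 for these pairs. Defa20 with Lyz1 was at 0.66, and 0.60 without control replicate 1. Fabp6 was negatively correlated with 6 of the other 7 members and at 0.11 with Rbp2. Without control replicate 1 its correlation was 0.41 with Apoa4, 0.35 with Apoc3 and 0.02 with Lyz1, and without Dnmt3a-deleted replicate 3 it was 0.34 with Apob and 0.12 with Lyz1. With 6 arrays that share their processing, these values describe the mice measured.

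**Figure D2:**
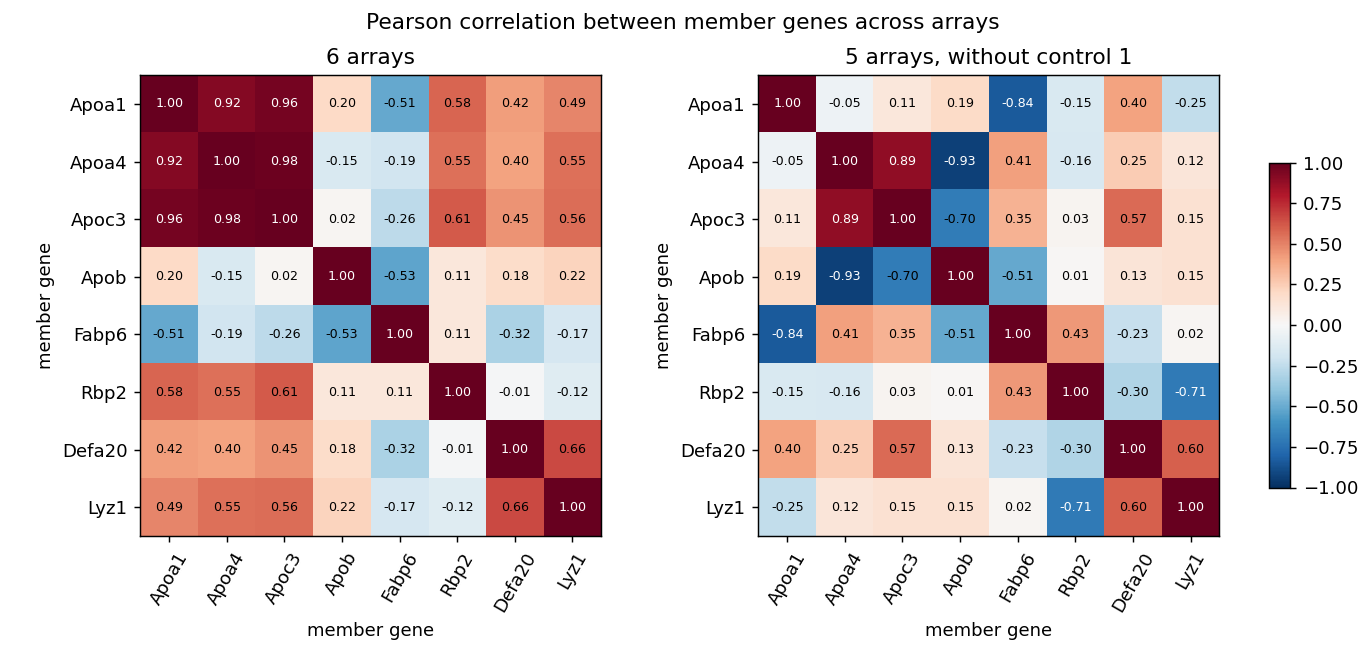
Pearson correlation of log2 levels between the 8 detected genes, on the left over the 6 arrays and on the right over 5 arrays without control replicate 1. The block of Apoa1, Apoa4 and Apoc3, at 0.92 to 0.98 on the left, keeps only Apoa4 with Apoc3, at 0.89, on the right.

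To set the leading mice against the rest of the array, a gene was counted as led by a mouse when its level there exceeded every other mouse by at least 1 log2. Control replicate 1 led 14 of 11370 genes, or 0.123%, and Dnmt3a-deleted replicate 2 led 2, or 0.0176%. Those of Dnmt3a-deleted replicate 2 were Defa20 and Defa3, another alpha-defensin. Those of control replicate 1 were Apoa1 and Apoa4, Reg1, a secreted lectin of the pancreas and gut (ahead by 2.30), the brush border genes Sis, Anpep and Amn, and St3gal5, Acaa1b, Tbx3, Fgfr2, Saa3, Arg2, Epop and Ces1g. Control replicates 2 and 3 led 27 and 73 genes, or 0.237% and 0.642%, and Dnmt3a-deleted replicate 1 led 3, or 0.0264%. Dnmt3a-deleted replicate 3, the array that stands apart, led 251 genes, or 2.21%, and 0 of the 8 detected members by that margin. Without background correction or in the authors' values, control replicate 1 led 4 genes, or 0.0352%, and with an offset of 50 it led 6, or 0.0528%, while Dnmt3a-deleted replicate 2 led 2 in each. These leads were counted after the levels had been seen.

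Other genes of related functions and tissues were taken from lists drawn up by function, with earlier results of these data known. In 12 lists, 115 of 196 genes were tested between the groups, and by limma 0 passed in either direction, the smallest adjusted p being 0.70. Of the 115 genes 14, or 12.2%, had an unadjusted p under 0.05, beside 5.25% of all genes tested.

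The brush border list, enzymes and carriers of small intestinal enterocytes, had 15 tested genes. Control replicate 1 led 3 of the 15, beside 0.123% of all genes, but 0 of them without background correction, in the authors' values or with an offset of 50. It was the highest mouse in 6, beside 10.8% of all genes. Sis, the sucrase-isomaltase, stood at 7.52, 6.12 and 5.25 in the controls and at 4.88, 6.35 and 4.89 in Dnmt3a-deleted mucosa. Anpep, aminopeptidase N, was at 7.11 in control replicate 1 against 5.46 to 6.03 elsewhere, and Amn, a partner of cubilin in vitamin B12 uptake, at 9.06 and from 6.97 to 7.99. In both Sis and Anpep the second highest mouse was Dnmt3a-deleted replicate 2, as control replicate 1 was for Defa20. The brightest genes of the list were Mep1b, Dpp4, Slc5a1 and Mep1a, which are peptidases and a glucose carrier, with group differences of 0.06, 0.04, 0.08 and -0.01. Mep1b ranged from 9.30 in control replicate 2 to 10.29 in control replicate 1, and Mep1a from 8.43 to 8.73. Lct, the lactase, was detected in control replicate 1 alone, at an intensity of 120.7 against at most 95.7 elsewhere. Tmprss15, Slc2a5, Enpep and Cubn, on the other hand, were detected in 0 of 6 mice. Over the 15 genes the median difference was 0.04.

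Other genes of fat absorption were not led by control replicate 1. Of 18 tested, 8 were higher and 10 lower in Dnmt3a-deleted mucosa with a median of -0.03. Control replicate 1 was the highest mouse in 5, beside 10.8% of all genes, and led 0, and Dnmt3a-deleted replicate 3 led 1, the sterol carrier Abcg8, by 1.15. Acsl5, Sar1b, Dgat2 and Apobec1, which activate fatty acids, carry chylomicrons out of the endoplasmic reticulum, complete triglyceride and edit Apob mRNA, were the brightest and had differences of 0.00, -0.64, -0.87 and 0.02. Dgat2 and Sar1b were lowest in Dnmt3a-deleted replicate 3, at 8.85 and 9.51 against at least 10.33 and 10.91 elsewhere, as Apob was. Mttp, which loads lipid onto Apob, was dim, at 5.83, 5.20 and 5.29 in the controls and at 4.97, 5.64 and 5.36 in Dnmt3a-deleted mucosa, highest in control replicate 1. Apoa5, which follows Apoa4 on chromosome 9, was detected in 0 of 6 mice.

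**Figure D3:**
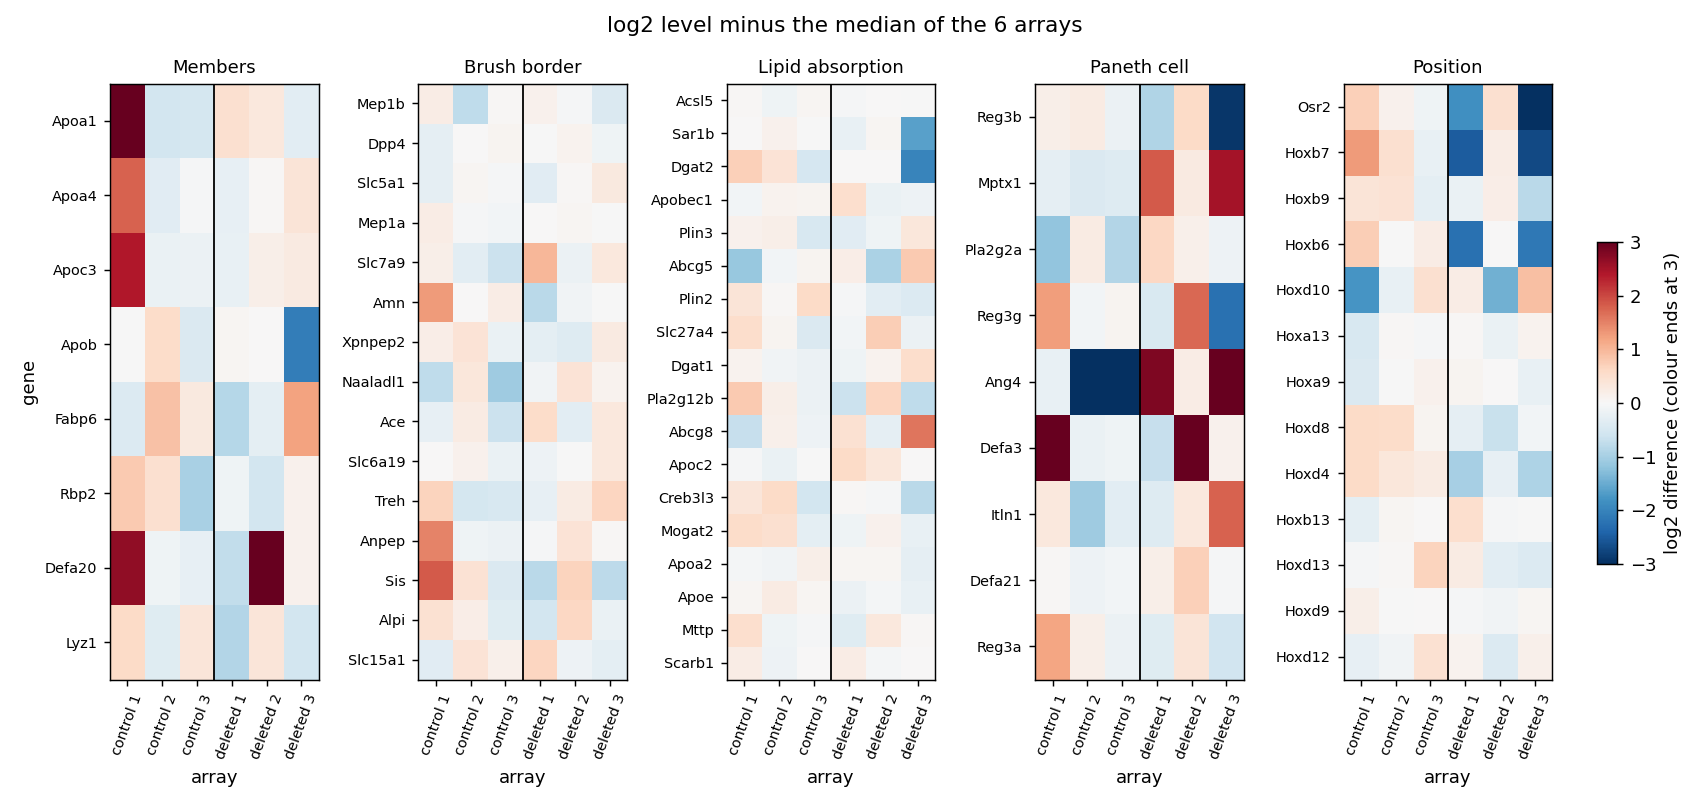
Log2 level of each gene minus its median over the 6 arrays (colour, which ends at 3), for the 8 detected members and the tested genes of 4 lists, with the groups parted by a black line. Control replicate 1 is red in Apoa1, Apoa4, Apoc3, Sis and Anpep, Dnmt3a-deleted replicate 2 and control replicate 1 are red in Defa20 and Defa3, and Dnmt3a-deleted replicates 1 and 3 are blue in Osr2, Hoxb6 and Hoxb7.

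Bile acid and retinoid genes were set beside Fabp6 and Rbp2. Nr1h4, the bile acid receptor, and the exporters Abcc3, Slc51b and Slc51a stood at log2 levels of 8.93 to 11.80, and all 4 were lowest in Dnmt3a-deleted replicate 3, where normalized Fabp6 was highest. That array held the highest level for 40.1% of all genes, and in scanned intensity Fabp6 was higher in control replicate 2. Control replicate 1 was the highest mouse in 4 of the 6 tested genes of bile acid handling, beside 10.8% of all genes. The group differences of Nr1h4, Abcc3, Slc51b and Slc51a were -0.26, -0.16, -0.71 and -1.37. Slc10a2, the ileal bile acid uptake carrier, was detected in 0 of 6 mice. Isx, the homeobox gene that restrains carotene uptake, and the retinal-oxidising enzyme Aldh1a1 were also lowest in that mouse, at 7.71 and 7.29, and highest in control replicate 1, at 10.12 and 9.80, with differences of -0.95 and -1.06. In the same list Rbp7 and Crabp2, other binding proteins of retinoids, had differences of 0.55 and 0.15. Among other lipid-binding proteins Dbi, Scp2, Acbd3 and Acbd4 had differences of 0.14, -0.68, -0.21 and -0.06.

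The Paneth cell list split by gene. Defa3, the alpha-defensin most like Defa20 over the 6 mice at a correlation of 0.989, stood at 8.68, 5.32 and 5.38 in the controls and at 4.83, 9.87 and 5.66 in Dnmt3a-deleted mucosa. Defa26 and Defa23 were detected in the same pair of mice and no other. Defa26 had an intensity of 188 in Dnmt3a-deleted replicate 2 and 100.6 in control replicate 1, and Defa23 of 112.2 and 103.7. Apart from the 188 these readings were close to background. Defa21 was detected in that pair and also in Dnmt3a-deleted replicate 1, at 122.2 at most. Mmp7, the protease that matures alpha-defensins in mice, was detected in Dnmt3a-deleted replicate 2 alone, close to background at 100.7 against at most 88.8 elsewhere. Reg3b and Reg3g, antibacterial lectins made by enterocytes as well, were likewise highest there, at 14.40 and 11.02, with differences of -1.16 and -0.74 between the groups. Mptx1, a pentraxin, and Ang4, which goblet cells also make, were highest in Dnmt3a-deleted replicate 3 and next in replicate 1, at 13.31 and 12.65 for Mptx1 and at 12.17 and 11.72 for Ang4. Pla2g2a, a secreted phospholipase, was highest in Dnmt3a-deleted replicate 1, at 10.31. Itln1 was highest in Dnmt3a-deleted replicate 3, at 7.95, and Reg3a in control replicate 1, at 6.32. The group differences of Mptx1, Ang4 and Pla2g2a were 1.90, 4.38 and 0.82. Of the 9 tested genes of the list 6 were higher and 3 lower in Dnmt3a-deleted mucosa, with a median of 0.35, and 0 passed.

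By the rule fixed for likeness, the genes closest to the mean profile of the 5 lipid genes detected on at least 3 arrays were Reg1, Ces1d, Sis, Anpep, St3gal5, Reg3a, Ces1g and Amn, at Pearson correlations of 0.892 to 0.796 over the 6 mice. They came from 1394 genes with an SD of at least 0.5 log2. Closest to Defa20 after Defa3 were Prap1, Aldh3b2 and Vav2, at 0.896, 0.885 and 0.87, and Prap1, a secreted protein of intestinal epithelium, stood at 10.51 in control replicate 1 and 10.59 in Dnmt3a-deleted replicate 2 against 8.10 to 8.87 elsewhere. Closest to Lyz1 were Mzb1, a gene of antibody-secreting cells, H2-T18, Wnt5a and Ces1f, at 0.986 to 0.931. These are the highest of many correlations over 6 mice and carry no test.

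Genes that mark position along the gut and other tissues were read beside these levels. Osr2, Hoxb7 and Hoxb6 were highest in control replicate 1, at 12.52, 10.48 and 8.18, and stood at 9.96, 6.70 and 5.21 in Dnmt3a-deleted replicate 1 and at 8.34, 6.48 and 5.30 in replicate 3. Dnmt3a-deleted replicate 2, with the highest Defa20, stood at 12.29, 9.42 and 7.46, inside the range of the control mice in each. Hoxb9 differed by -0.45 between the groups. Hoxd10 went the other way, lowest in control replicate 1, at 5.14, and Dnmt3a-deleted replicate 2, at 5.49, against 6.69 to 7.82 elsewhere. The other 8 tested genes of the list were at most 6.79. Among these, Dnmt3a-deleted replicate 2 stood below every control mouse in Hoxd4, at 5.40 against at least 5.87, and in Hoxd8, at 4.96 against at least 5.71. It did so by less in Hoxd9, Hoxd12 and Hoxd13, and was inside the range of the control mice in Hoxa9, Hoxa13 and Hoxb13. The part of position along the colon in the levels of the members was not tested. Elf3, Klf5, Cdx2 and Hnf4a, transcription factors of intestinal epithelium of which Hnf4a activates apolipoprotein genes, had group differences of 0.60, 0.09, -0.06 and 0.16, and Gata4, a factor of the proximal small intestine, stood at 5.18 to 5.57, little above background. Of the colonocyte genes, Car1, Retnlb, Car4 and Lypd8 had differences of -1.0, 0.23, 0.03 and -0.63.

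Liver also makes some of these proteins, and genes of liver and of pancreas were read beside them. Alb, the albumin of hepatocytes, was detected in 0 of 6 mice, as were 9 of the 15 hepatocyte genes, and the 20 probes of that list summed to an intensity of 2070 to 2881 in the controls and of 2230 to 2697 in Dnmt3a-deleted mucosa. Without Ttr, which makes up most of that spread, they summed to 1684 in control replicate 1 and 1728 in Dnmt3a-deleted replicate 2, against 1624 to 1714 elsewhere. On 1 of 2 probes each, Hpx was detected in control replicate 1 alone, at 96.1 against at most 92 elsewhere, and Serpinc1 in control replicate 1 and Dnmt3a-deleted replicate 2 alone, at 97.4 and 101.3. Hamp was detected in Dnmt3a-deleted replicate 1 alone, at 101.2, and Fgg in control replicate 3 and Dnmt3a-deleted replicate 2, at 99.7 and 98.1. All these readings were close to background. Ttr was lowest in control replicate 1, at a log2 level of 8.29 against 8.65 to 10.39 elsewhere. Of the 2 tested genes of the hepatocyte list, Ttr had a difference of 0.21 and Ambp 0.48. The pancreatic acinar list summed to 3997 in control replicate 1 against 4465 to 6534 elsewhere, and without Cela1 and Clps to 1003 against 943 to 1078. Its brightest genes Cela1, Clps, Cela3b and Cpb1 had differences of 0.34, 1.47, -0.28 and 0.21. In the macrophage list Cd14, Fcer1g, Lyz2 and C1qc had differences of -0.11, -1.20, -0.80 and 0.01.

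The size of the leads depended on the background correction more than on the scaling between arrays. Apoa1 in control replicate 1 was ahead by 3.00 log2 in the authors' processed values and by 4.08 with median scaling, and Defa20 in Dnmt3a-deleted replicate 2 by 1.98 and 2.23. The same mouse was the highest for each of Apoa1, Apoa4, Apoc3 and Defa20 in every processing tried that kept that mouse.

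**Figure D4:**
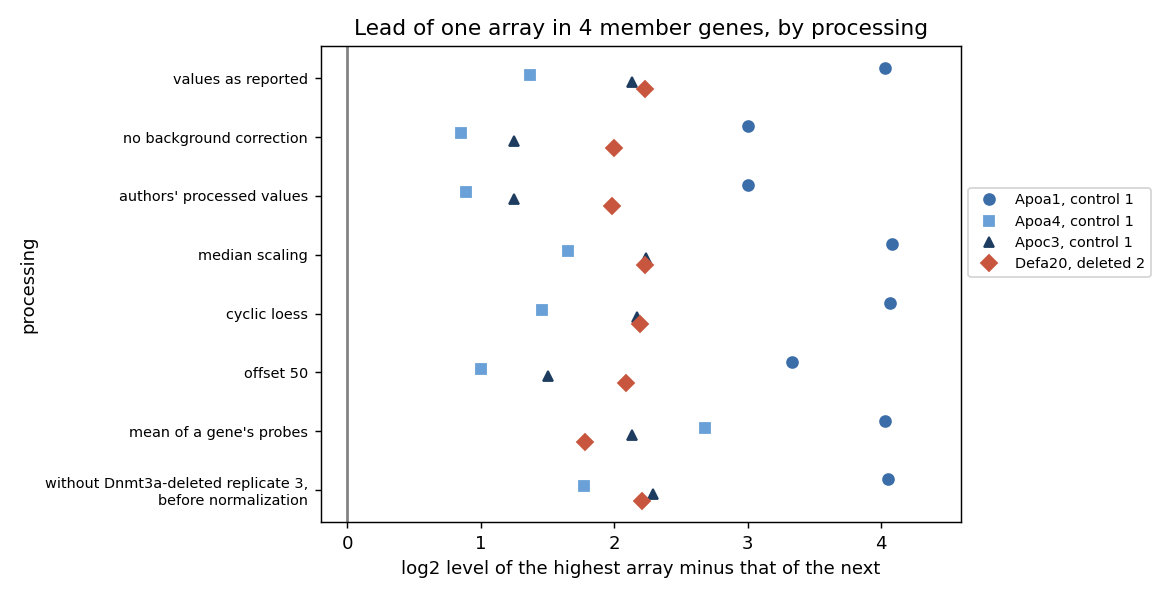
Lead of the highest array over the next, in log2, for Apoa1, Apoa4 and Apoc3 in control replicate 1 and Defa20 in Dnmt3a-deleted replicate 2, under the values as reported and 7 other ways of processing. Each lead stays above 0, from 0.85 for Apoa4 without background correction to 4.08 for Apoa1 with median scaling.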

How the data were processed

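Total RNA of colon mucosa was column purified, DNase treated and amplified to biotinylated cRNA, per the labels' protocols, and hybridised to Illumina bead arrays. The deposited unprocessed table holds an intensity per probe on a linear scale with background left in, and a deposited detection p-value that, from the values, is small on either side of background. The authors' processed intensities are linear, with background left in, and how they were normalized is not given in the sources used here. Their array medians were 92.9 to 93.3 on 5 arrays and 94.8 on that of Dnmt3a-deleted replicate 3, and they served as an alternative.

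From the unprocessed intensities, normexp background correction (saddle-point, offset 16), quantile normalization and log2 were computed here with limma 3.58.1 in R 4.3.3. Background was the median signal of probes with a detection p over 0.97. The filter kept probes detected on 3 or more of the 6 arrays, 21183 of 45135, and a gene was represented by its brightest kept probe, a member by its brightest probe detected on any array. Platform symbols named 34773 probes, of which 34695 were brought up to date with RefSeq gene numbers. The number of arrays limits the precision.

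Groups were compared with limma's lmFit and eBayes, 2-sided, with Benjamini-Hochberg adjustment over 11370 genes, and the fit was tested on simulated data. Members and lists were chosen with earlier results of these data known. Named were all members, the 4 brightest tested genes of each list and any past the threshold, and the genes most like the lipid profile (8), Defa20 (4) and Lyz1 (4). Other genes named from the lists, and those led by 1 mouse, were picked with their values in view. Alternatives varied background, scaling, offset, filter, probe rule, variance model, weights, block and arrays.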

Additional observations from a re-analysis of the deposited data

How the results depend on the processing

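Of the 8 members' differences 7 changed sign under at least 1 of 18 alternatives and Lyz1 under 0, at -1.01 to -0.29. The count of genes past the threshold, 1, was 15 with array weights, which put most of the Dnmt3a-deleted weight on replicate 1, and ran from 0 (without control replicate 2) to 1 when single arrays were left out. Of the list genes 0 passed, and 1 with array weights, Hoxd4 (log2 -1.36, limma adjusted p 0.0441). Over all genes the median difference moved from 0.055 to -0.051 with median scaling, under which no member changed direction. With the replicate number as a block 1 gene and 0 list genes passed. Both groups hold the same replicate numbers, so this block cannot change a group difference, and the median over members was -0.47 by construction. The titles do not say whether the numbers pair the mice. Deviations of same-numbered arrays from their group means correlated at -0.12, -0.11 and 0.04, and those of differently numbered arrays at -0.07 to 0.2. With 3 arrays a group these values cannot decide whether mice were paired.

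The median difference over members stayed between -1.01 (array weights) and -0.32 with all arrays, and ran from -0.78 to 0.16 with single arrays left out, turning without control replicate 1. The difference of Defa20, 0.67, turned to -1.37 with array weights.

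Without background correction, in the authors' values and with an offset of 50, the lead of control replicate 1 was 3.00, 3.00 and 3.33 for Apoa1, 0.85, 0.89 and 1.00 for Apoa4 and 1.25, 1.25 and 1.5 for Apoc3. The count of 3 brush border genes led by it was 0 in each of these 3, which shrink log ratios of dim probes by construction, and 3 under the others. For Apoa4 the lead was 2.68 with the mean of its probes, and with Dnmt3a-deleted replicate 3 removed before normalization it was 1.77, beside 2.29 for Apoc3 and 2.21 for Defa20. With single arrays left out, leads ran from 4.03 to 4.20 for Apoa1, from 1.37 to 1.72 for Apoa4, from 2.13 to 2.23 for Apoc3 and from 2.23 to 4.75 for Defa20, the last without control replicate 1. The leads and this count were added after the data had been seen. A slide block was not run, since slides were not used here. With 3 mice a group and several genes near background, small differences cannot be shown.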
